A study of Mus musculus with 6 samples.

Results

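Among the hepatocyte nuclei of 6 mouse livers, 3020 nuclei fell below a gate for pericentral transcripts and below a gate for periportal transcripts, and these nuclei are described here. They were 3020 of 41882 barcodes in all and 3020 of 10699 nuclei in the hepatocyte gate, with 3961 nuclei above the periportal gate and 3718 above the pericentral gate. A nucleus entered the hepatocyte gate with under 5000 genes, under 5% mitochondrial UMIs (unique molecular identifiers, each counting 1 captured transcript), at least 2500 UMIs, at least 4 of the 6 hepatocyte transcripts Alb, Apob, Hnf4a, Ttr, Fn1 and Plg detected, and at most 3 UMIs in the sum of Ptprc, Ptprb, Stab2, Dcn and Skap1. Within that gate, a nucleus was below both zonal gates when Glul and Slc1a2 summed to under 0.2% of its UMIs and Hal, Sds, Cyp2f2 and Gls2 summed to under 0.05%. The nuclei were thus chosen by their measured levels of these 17 genes, and the genes of the rule are given as a description, without a test.

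The mice were male DIAMOND mice, a cross of 129A1/SvIm with C57BL/6J used as a diet-induced model of fatty liver disease, which began their diets at 2 months of age. Ctrl mice received chow for 40 weeks, Pre-T mice a Western diet (high-fat food with sugar water) for 40 weeks, before tumors, and Post-T mice the Western diet for 48 weeks, when tumors had developed. Each group held 2 mice with 1 library each, prepared from snap-frozen liver with the 10x Genomics 3′ chemistry, and the longer time on diet cannot be told apart from tumor status. The sample titles of the Post-T group name tumor while the tissue label says liver, so whether their nuclei came from tumor or surrounding liver is not known here.

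Hepatocytes divide their work along the liver lobule. Around the portal vein, where blood enters, they make glucose and urea, and around the central vein, where blood leaves, Wnt signals keep glutamine synthetase (Glul) and many cytochromes P450 high. Between these ends lie midlobular hepatocytes, which are known for hepcidin (Hamp), the hormone that lowers iron uptake.

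In the nuclei below both gates the defining hepatocyte transcripts were present in every mouse. Alb, the albumin gene, was at 7749 and 5322 CPM in the Ctrl mice, 2870.1 and 5193 CPM in the Pre-T mice and 6411 and 3812 CPM in the Post-T mice, and Hnf4a, the transcription factor that maintains hepatocyte identity, was at 328 and 341 CPM in the Ctrl mice, 259.9 and 255 CPM in the Pre-T mice and 343 and 446 CPM in the Post-T mice (CPM, counts per 1000000 UMIs of these nuclei in that mouse). Ttr, encoding transthyretin, was at 3018 and 2391 CPM in the Ctrl mice, 1367 and 2029 CPM in the Pre-T mice and 586 and 919.8 CPM in the Post-T mice, and Apob, the structural protein of liver lipoproteins, was at 2561 and 1512 CPM in the Ctrl mice, 1124 and 1469 CPM in the Pre-T mice and 1671 and 1640.4 CPM in the Post-T mice. All 6 hepatocyte transcripts of the rule were detected in 60.3% of the nuclei. By mouse this was 60.8% and 63.8% in Ctrl, 65.9% and 59.4% in Pre-T and 47.9% and 20.8% in Post-T.

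The liver libraries held 5638 to 8469 barcodes and 22453658 to 40307564 UMIs. The nuclei below both gates summed to 2294658 to 5213358 UMIs in 5 mice but to 105460 UMIs in Post-T 2, which contributed 24 nuclei, so that 1 UMI was worth 9.48 CPM there and 0.192 to 0.436 CPM elsewhere. On the log scale, their summed profile in Post-T 2 correlated at r = 0.432 to 0.569 with those of the other mice, while the other mice correlated at 0.763 to 0.959 among themselves (across genes, which are not independent replicates). Of the barcode sequences of the nuclei below both gates, 2 occurred in more than 1 library (181 of 41700 over all barcodes). The intervals given below cover counting error only.

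The share of hepatocyte nuclei below both gates was highest in the Pre-T mice. It was 29.4% (95% Clopper-Pearson interval 27.7 to 31.2) in Ctrl 1 and 22.7% (21.0 to 24.5) in Ctrl 2. In the Pre-T mice it was 40.8% (38.4 to 43.3) and 59.7% (56.8 to 62.5). In the Post-T mice it was 21.4% (19.5 to 23.5) and 1.75% (1.13 to 2.60). The group means were 26.1% ± 4.76 for Ctrl, 50.3% ± 13.3 for Pre-T and 11.6% ± 13.9 for Post-T (SD, n = 2 each), so both Pre-T mice lay above both Ctrl mice and both Post-T mice below them. With 2 mice against 2 no permutation test can reach the 0.05 threshold, and the 4 Western diet mice, spread from 1.75% to 59.7%, enclosed the Ctrl range. The gates were fixed, while the genes they use differed between the groups. Over all hepatocyte nuclei the periportal sum had a median of 0.148% and 0.250% of UMIs in Ctrl, 0% and 0.0179% in Pre-T and 0% and 0% in Post-T. A change in the levels of these genes cannot be told apart here from a change in the kinds of nuclei.

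In the Post-T mice most hepatocyte nuclei lay above the pericentral gate. That gate held 5.62% and 7.94% of hepatocyte nuclei in the Ctrl mice, 42.8% and 8.28% in the Pre-T mice and 77.6% and 98.2% in the Post-T mice. The periportal gate held 65% and 69.4% in the Ctrl mice, 16.4% and 32.0% in the Pre-T mice and 0.977% and 0.0730% in the Post-T mice. In the Post-T mice the median share of Glul and Slc1a2 over all hepatocyte nuclei was 0.410% and 1.07% of UMIs, above the gate itself.

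**Figure D1:**
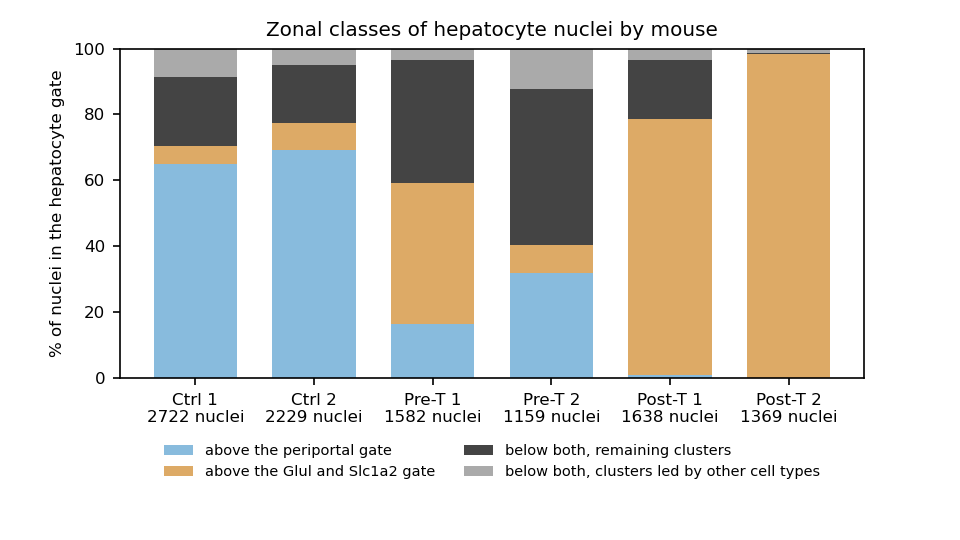
Share of hepatocyte-gate nuclei (percent of nuclei, vertical axis) below both zonal gates, above the periportal gate and above the pericentral gate in each of the 6 mice, with the nuclei below both gates split into the 7 clusters led by markers of other cell types (described below) and the remaining clusters. The share below both gates was 29.4% and 22.7% in the Ctrl mice, 40.8% and 59.7% in the Pre-T mice and 21.4% and 1.75% in the Post-T mice.

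Depth set how many UMIs a nucleus needed to pass a gate. At the minimum of 2500 UMIs a nucleus passed the periportal gate with 2 UMIs of the 4 periportal genes and the pericentral gate with 5 UMIs of Glul and Slc1a2. The median was 4911 and 5968.5 UMIs in the Ctrl, 7509.5 and 5611 in the Pre-T and 5236 and 3694.5 in the Post-T nuclei below both gates. After each nucleus was thinned to 2500 UMIs the shares were 31.2% and 23.3% in Ctrl, 42.5% and 62.7% in Pre-T and 21.2% and 1.53% in Post-T, in the same order as before. Of the nuclei below both gates, 56.1% had 0 UMIs of the 4 periportal genes, 45.7% had 0 UMIs of Glul and Slc1a2, and 22.1% (668 nuclei) had neither. Nuclei lay on both sides close to the limits, with a highest periportal share inside of 0.04986% and a lowest outside of 0.05008%, and 0.1999% and 0.2001% for the pericentral sum.

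The zonal transcripts that the rule did not use were present in these nuclei, at levels between those of the 2 gated classes. A list of 19 further pericentral genes, led by the cytochromes P450, summed to 5664 and 7244 CPM in the Ctrl, 2281 and 2389 CPM in the Pre-T and 2372 and 3992 CPM in the Post-T nuclei below both gates. That was 4.30 and 4.77 times the sum in nuclei above the periportal gate of the same Ctrl mice, and 0.535 and 0.591 of the sum in nuclei above the pericentral gate. In the 5 mice other than Post-T 2, all 19 genes were higher below both gates than above the periportal gate, and in Post-T 2, 14 were. Only 16 nuclei of Post-T 1 and 1 nucleus of Post-T 2 lay above the periportal gate. Cyp2e1, the alcohol-oxidising pericentral P450, was at 1293 and 2961 CPM below both gates in the Ctrl mice, against 280.2 and 575 CPM above the periportal gate and 2524 and 3419 CPM above the pericentral gate.

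The 15 further periportal genes, among them those of the urea cycle and of gluconeogenesis, also lay between the classes as a sum. They summed to 9085 and 12598 CPM in the Ctrl nuclei below both gates, 5103 and 5423 CPM in the Pre-T nuclei and 4139 and 4153 CPM in the Post-T nuclei. This was 0.577 and 0.596 of the sum above the periportal gate in the Ctrl mice, 0.404 and 0.476 in the Pre-T mice and 0.369 and 0.190 in the Post-T mice. Against nuclei above the pericentral gate it was 1.84 and 2.31 times the sum in Ctrl, 5.12 and 3.0 times in Pre-T and 1.66 and 1.51 times in Post-T. Taken gene by gene, 13 and 15 of the 15 lay between the 2 gated classes in the Ctrl mice, 15 and 15 in the Pre-T mice, 12 in Post-T 1 and 8 in Post-T 2. The Post-T values rest on few nuclei, with 16 and 1 above the periportal gate. Without the clusters led by other cell types, described below, the Post-T sums below both gates were 4491 and 10545 CPM. The second of these came from 6 nuclei. Cps1, the entry enzyme of the urea cycle, was at 3435 and 4677 CPM below both gates in the Ctrl mice, between 4925 and 5749 CPM above the periportal gate and 781 and 1272 CPM above the pericentral gate. These class comparisons share the mice and the libraries and are descriptions, with no test.

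The 4 midlobular genes, as a sum, lay close to the level above the periportal gate in the Ctrl mice. The sum, mostly Hamp, was 1429.9 and 2480.1 CPM below both gates, 1.07 and 0.995 times that above the periportal gate and 3.65 and 3.53 times that above the pericentral gate. Gene by gene, 1 of the 4 lay between the 2 gated classes in Ctrl 1 and 3 in Ctrl 2. In the Pre-T mice the sum was 374 and 428 CPM, 0.286 and 0.378 of the level above the periportal gate. In the Post-T mice it was 89.8 and 94.8 CPM, against 84.7 and 112 CPM above the pericentral gate. The sum above the periportal gate was 91.7 and 81.2 CPM, but from only 16 nuclei and 1 nucleus. In that 1 nucleus of Post-T 2, Igfbp2 alone was above 0. The name “without either zonal signature” is therefore not borne out by these values, and the nuclei are called here by their rule, nuclei below both zonal gates.

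**Figure D2:**
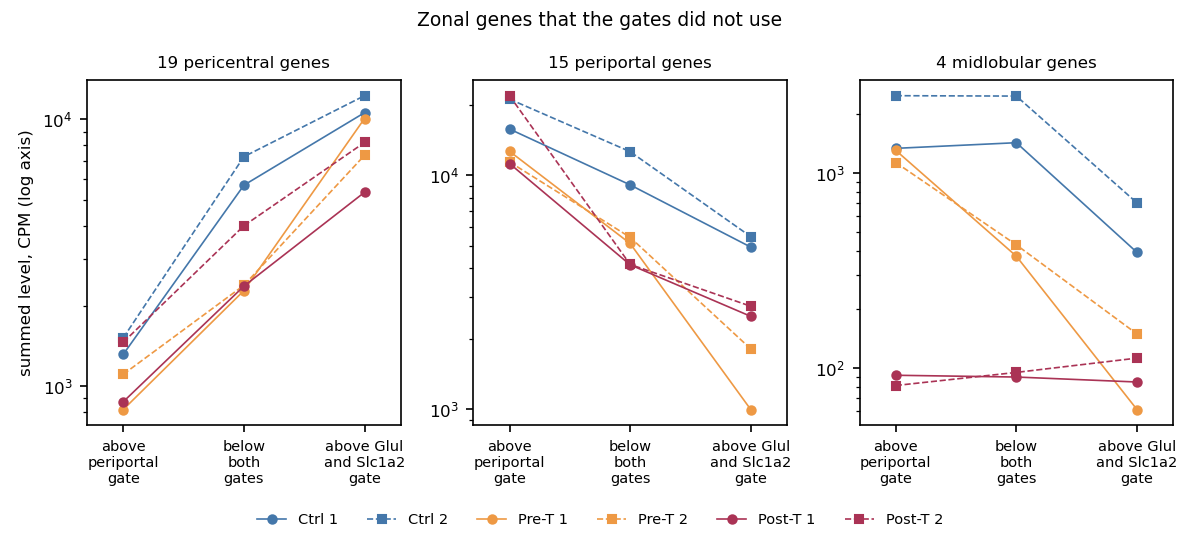
Summed CPM (log axis) of 19 pericentral, 15 periportal and 4 midlobular genes that the rule did not use, in the 3 classes of hepatocyte nuclei, with 1 point per mouse. Above the periportal gate the Post-T points come from 16 nuclei and 1 nucleus. In the Ctrl mice the pericentral sum below both gates (5664 and 7244 CPM) lies between the sum above the periportal gate (1318 and 1519 CPM) and that above the pericentral gate (10586 and 12257 CPM).

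Not every nucleus below both gates had a hepatocyte profile. Clustering of the 3020 nuclei gave 19 clusters, of which 7 were led by markers of another cell type and held 621 nuclei (20.6%). By their markers, 232 nuclei were stellate cell- and fibroblast-like, 151 macrophage-like, 120 cholangiocyte-like, 55 mesothelial-like, 33 B cell-like and 30 endothelial-like. Such clusters held 29.3% and 22.5% of these nuclei in the Ctrl mice, 8.67% and 20.5% in the Pre-T mice and 16% and 75% in the Post-T mice. In Post-T 2 that left 6 of the 24 nuclei. Nuclei with RNA of 2 cell types, or free hepatocyte RNA captured with other nuclei, cannot be told apart here, since no doublet caller was run. The counts of genes and of list members against the Ctrl mice are therefore, with few exceptions, also given without these 7 clusters, an alternative chosen after seeing the data.

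Of the remaining 12 clusters, 1 was led in part by hemoglobin genes. It held 271 nuclei, 270 of them from Post-T 1, where it made up 76.9% of the nuclei below both gates, and Hbb-bs, Hba-a1, Hba-a2 and Hbb-bt were among its 10 leading genes. In this cluster Hbb-bs was at 2139.8 CPM, against 119.8 CPM in all other nuclei, and 5 of the 10 erythroid markers were raised at least 2-fold, below the 8 of 10 asked of a cluster led by another cell type. Alb was at 7398 CPM in it and Hnf4a was detected in 80.8% of its nuclei. The 9 erythroid markers with a row in the files summed to 3860 CPM in all nuclei below both gates of Post-T 1, against 1634 CPM above the periportal gate and 1153 CPM above the pericentral gate of that mouse. Without this cluster and the 7 others, 25 nuclei remained in Post-T 1 and 6 in Post-T 2, and counts from that fit, also added after seeing the data, stand with each comparison. A further cluster, of 20 nuclei, was led by the cell cycle genes Top2a and Mki67. Another, of 355 nuclei, 80 from Pre-T 1 and 275 from Pre-T 2, had Lyz2, C1qa and C1qb among its 10 leading genes. The macrophage markers Cd5l, C1qa and Cd74 were raised at least 2-fold in it, and Alb was at 6041 CPM. It was kept in the fits without the 7 clusters.

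The summed markers of other cell types differed between the groups. The 10 stellate cell and fibroblast markers summed to 1360 and 1643 CPM in the Ctrl nuclei below both gates, 259 and 459 CPM in the Pre-T nuclei and 453 and 2958 CPM in the Post-T nuclei. Mesothelial markers ran from 188 to 205 CPM in Ctrl and from 16.6 to 47.4 CPM in the 4 Western diet mice, and macrophage markers from 84.8 to 98.8 CPM in Ctrl and from 139 to 645 CPM on the Western diet. Transcripts of erythroid cells summed to 88.9 to 211 CPM in Ctrl, 289.6 and 1241 CPM in Pre-T and 3860 and 123 CPM in Post-T. No defining marker of stellate cells was at 0 in 5 mice, and 1 was in Post-T 2. Of the 10 T and NK cell markers, summing to 15.1 to 15.4 CPM in Ctrl and 75.9 to 135 CPM on the Western diet, Themis alone made up most of the difference, with 4.1 and 11 CPM in the Ctrl mice, 127 and 114 CPM in the Pre-T mice and 88 and 56.9 CPM in the Post-T mice. Their part in the results below was not tested beyond the counts without these clusters.

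Between the Pre-T and the Ctrl mice, 194 genes passed the test in the nuclei below both gates, 79 higher (0.462%) and 115 lower (0.673%), together 1.13% of the 17094 genes tested (edgeR's quasi-likelihood test on UMIs summed per mouse, Benjamini-Hochberg adjusted p under 0.05). Genes of cholesterol synthesis, male-biased genes and midlobular genes were among those that fell, and genes of lipid storage, the lipoprotein gene Apoa4 and a few acute-phase genes among those that rose. Excluding the 7 clusters led by other cell types, 1099 genes passed (613 higher or 3.87%, 486 lower or 3.07%, together 6.95% of 15820), and 165 of the 194 were among them. Without the cluster led by hemoglobin genes as well, 707 passed (4.54% of 15572), with 156 of the 194 among them. Without Post-T 2, 598 passed (201 higher or 1.18%, 397 lower or 2.33%, together 3.5%), among them all 194. With the Ctrl and Pre-T mice alone 496 passed (2.95%), with 186 of the 194 among them, and DESeq2 called 328 (1.92%). The count rested on both mice of each group. Leaving out Ctrl 1 gave 2 calls, leaving out Ctrl 2 gave 72, and leaving out Pre-T 2 gave 12. Dropping Post-T 1 gave 494. Dropping Pre-T 1 gave 0 calls, although edgeR still gave 1228 genes at an unadjusted p under 0.05. In 59.2% of all genes tested the CPM of the 2 groups did not overlap (42.2% higher and 17% lower in Pre-T).

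Cholesterol synthesis is controlled by the transcription factor SREBP2, which raises the enzymes of the pathway when sterols are low. All 19 genes of the list for this pathway were lower in the Pre-T than in the Ctrl nuclei, with a median log2 fold change of -2.15 against 0.02 over all genes, and 4 passed the test. Msmo1, a sterol demethylase (ENSMUSG00000031604, chr8:64718139-64733792, minus strand, mm10), was at 489.8 and 193 CPM in the Ctrl mice and 29.3 and 27.1 CPM in the Pre-T mice (log2 fold change -3.84, SE 0.53, edgeR adjusted p = 0.024). Both Pre-T mice were far below both Ctrl mice, although the Ctrl mice differed from each other.
Sqle, squalene epoxidase, was at 65.8 and 25.9 CPM in the Ctrl mice and 3.26 and 3.02 CPM in the Pre-T mice (log2 fold change -4.1, SE 0.56, edgeR adjusted p = 0.024). Idi1, which isomerises the isoprene building block, was at 114 and 32.3 CPM in the Ctrl mice and 7.67 and 7.32 CPM in the Pre-T mice (log2 fold change -3.53, SE 0.58, edgeR adjusted p = 0.0364). Stard4, a carrier of cholesterol between membranes, was at 108 and 78.4 CPM in the Ctrl mice and 36.4 and 31.7 CPM in the Pre-T mice (log2 fold change -1.7, SE 0.28, edgeR adjusted p = 0.0359). For each of these genes the Pre-T mice lay close together and below both Ctrl mice, and Ctrl 1 was above Ctrl 2. Excluding the 7 clusters led by other cell types 14 of the 19 passed, all lower, and without Post-T 2, 8 did. Insig1, the sterol sensor that holds SREBP2 back, was at 551 and 207 CPM in the Ctrl mice and 82.5 and 78.8 CPM in the Pre-T mice and missed the threshold (log2 fold change -2.48, SE 0.46, edgeR adjusted p = 0.052).

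Male-biased liver genes, which depend on the pulsed release of growth hormone in males, were also lower. Of 10 such genes 2 passed the test, both lower, with a median of -2.33 over the list. Hsd3b5, a male-biased hydroxysteroid dehydrogenase (ENSMUSG00000038092, chr3:98618634-98630252, minus strand), was at 136 and 107 CPM in the Ctrl mice and 0 and 1.08 CPM in the Pre-T mice (log2 fold change -8.03, SE 0.69, edgeR adjusted p = 0.0147), 697 and 397 UMIs against 0 and 5 UMIs. Cyp2d9, a male-biased steroid hydroxylase, was at 614 and 439.6 CPM in the Ctrl mice and 161 and 141 CPM in the Pre-T mice (log2 fold change -2.05, SE 0.33, edgeR adjusted p = 0.0359). Mup11, a major urinary protein gene outside that list, was at 290.2 and 77.8 CPM in the Ctrl mice and 0.959 and 2.37 CPM in the Pre-T mice (log2 fold change -7.03, SE 0.78, edgeR adjusted p = 0.0173). All 3 were lower in both Pre-T mice than in either Ctrl mouse, and all 3 have close paralogs whose reads the counting could split. After removal of the 7 clusters 6 of the 10 male-biased genes passed, all lower. None of the 6 tested female-biased genes passed in edgeR (median 3.05, with 3 at an unadjusted p under 0.05 and 0 called by DESeq2), and without the 7 clusters 3 did, all higher. Cyp2b9, a female-biased P450, was at 0 and 4.04 CPM in the Ctrl mice and 44.3 and 47.4 CPM in the Pre-T mice (log2 fold change 4.38, SE 0.96, edgeR adjusted p = 0.0838).

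Some genes of lipid storage rose. Of 23 genes of lipid droplets and lipogenesis, 3 passed the test, all higher, with a median of 0.72. Pnpla3, a lipid droplet protein whose variants are tied to fatty liver in people (ENSMUSG00000041653, chr15:84167837-84187236, plus strand), was at 4.3 and 2.15 CPM in the Ctrl mice and 69.4 and 54.1 CPM in the Pre-T mice (log2 fold change 3.97, SE 0.45, edgeR adjusted p = 0.0173). Cidec, which fuses lipid droplets, was at 4.69 and 11 CPM in the Ctrl mice and 119 and 70 CPM in the Pre-T mice (log2 fold change 3.36, SE 0.50, edgeR adjusted p = 0.0286). Mogat1, a monoacylglycerol acyltransferase, was at 4.88 and 5.39 CPM in the Ctrl mice and 33.8 and 35.3 CPM in the Pre-T mice (log2 fold change 2.5, SE 0.33, edgeR adjusted p = 0.0234). The Ctrl mice did not exceed 11.0 CPM for any of these 3 genes, and neither Pre-T mouse was below 33.8 CPM. Without nuclei of the 7 clusters 6 of the 23 passed, all higher. Of 20 genes of fatty acid oxidation 1 passed, Cyp4a10, an omega-hydroxylase under the lipid sensor PPAR alpha, at 18 and 24.8 CPM in the Ctrl mice and 70.6 and 75.6 CPM in the Pre-T mice (log2 fold change 1.53, SE 0.27, edgeR adjusted p = 0.0463), while the list median was 0.06. Without the 7 clusters this was again the 1 call of that list.

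Apoa4, an apolipoprotein that liver makes in large amounts when fat accumulates (ENSMUSG00000032080, chr9:46240696-46243459, plus strand), was at 3.12 and 7 CPM in the Ctrl mice and 145 and 179.6 CPM in the Pre-T mice (log2 fold change 4.78, SE 0.45, edgeR adjusted p = 0.0147). It was the only gene of 24 for secreted plasma proteins that passed, and the median of that list was -0.44. With the 7 clusters left out, 3 of the 24 passed, Apoa4 higher and Itih1 and Serpina3k lower. Of the 16 hepatocyte transcription factors none passed (median -0.37), with Ppara at 1218 and 2071 CPM in the Ctrl mice and 1096 and 1059 CPM in the Pre-T mice and Nr1h4, the bile acid receptor, at 683 and 1058 CPM in the Ctrl mice and 969.6 and 881 CPM in the Pre-T mice. In that list edgeR gave 3 genes at an unadjusted p under 0.05 and DESeq2 called 0, and without the 7 clusters 1 of 16 passed in edgeR, lower.

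Acute-phase genes moved in both directions. Of 17 such genes 3 rose and 1 fell, with a median of 0.61. Lcn2, lipocalin 2, which binds bacterial iron carriers (ENSMUSG00000026822, chr2:32384633-32388252, minus strand), was at 0.195 and 0.269 CPM in the Ctrl mice and 39.5 and 85.7 CPM in the Pre-T mice, with 2 UMIs in the Ctrl nuclei and 604 in the Pre-T nuclei, a ratio of 271 (95% counting interval 74.6 to 2240, edgeR adjusted p = 0.0303). Steap4, a metalloreductase, was at 38.7 and 35 CPM in the Ctrl mice and 109 and 148 CPM in the Pre-T mice (log2 fold change 1.55, SE 0.27, edgeR adjusted p = 0.0437). The third, Orm3, was at 0.195 and 0 CPM in the Ctrl mice and 11.9 and 32.5 CPM in the Pre-T mice. The member that fell, Hamp, belongs to the midlobular list as well. Of 11 tested genes of liver tumors and fetal liver, Lcn2 and Ly6d, a surface protein of the Ly6 family, passed, and the median was 1.32, or 1.20 with 1 gene at 0 UMIs set at its bound. Ly6d was at 1.37 and 2.42 CPM in the Ctrl mice and 49.7 and 36.6 CPM in the Pre-T mice (log2 fold change 4.28, SE 0.44, edgeR adjusted p = 0.0147). In both genes the Ctrl mice were near 0 and the Pre-T mice were not. After removal of the 7 clusters 6 of the 17 acute-phase genes passed, 5 of them higher (Saa2 and Orm2 in addition to those named), and 4 of 10 tested genes of the tumor list, all higher (Golm1 and Cd44 in addition).

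Of the 4 midlobular genes 3 fell. Hamp (ENSMUSG00000050440, chr7:30942368-30944032, minus strand) was at 1097 and 2225 CPM in the Ctrl mice and 329.9 and 364 CPM in the Pre-T mice (log2 fold change -2.5, SE 0.43, edgeR adjusted p = 0.0437). Igfbp2, an insulin-like growth factor binding protein, was at 205 and 184 CPM in the Ctrl mice and 14.8 and 26.9 CPM in the Pre-T mice (log2 fold change -3.47, SE 0.35, edgeR adjusted p = 0.0147). Cyp8b1, the sterol hydroxylase that sets the share of cholic acid in bile, was at 122 and 65.2 CPM in the Ctrl mice and 28.2 and 31.4 CPM in the Pre-T mice (log2 fold change -1.89, SE 0.34, edgeR adjusted p = 0.0492). The Pre-T mice were below both Ctrl mice in all 3, and the Pre-T mice differed from each other less than the Ctrl mice did for Hamp and Cyp8b1. The pericentral list had 1 of 19 passing, Cyp2c54, a cytochrome P450, at 173 and 213 CPM in the Ctrl mice and 22.1 and 40.3 CPM in the Pre-T mice (log2 fold change -2.88, SE 0.37, edgeR adjusted p = 0.0221). The periportal list had 1 of 15, Etnppl, which breaks down phosphoethanolamine, at 117 and 83.8 CPM in the Ctrl mice and 15 and 8.83 CPM in the Pre-T mice (log2 fold change -3.31, SE 0.47, edgeR adjusted p = 0.0253). The medians were -0.80 and -1.07, and without the 7 clusters 9 of 19 pericentral genes passed, all lower, and 5 of 15 periportal genes, 4 of them lower. Of 17 genes of bile acid synthesis and transport, 1 passed (Cyp8b1, median -0.63). Without nuclei of the 7 clusters 7 of the 17 passed, with Abcc4 higher and Cyp8b1, Cyp7b1, Slc10a1, Slco1a1, Abcc3 and Nr0b2 lower, and the same 3 midlobular genes passed, all lower.

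**Figure D3:**
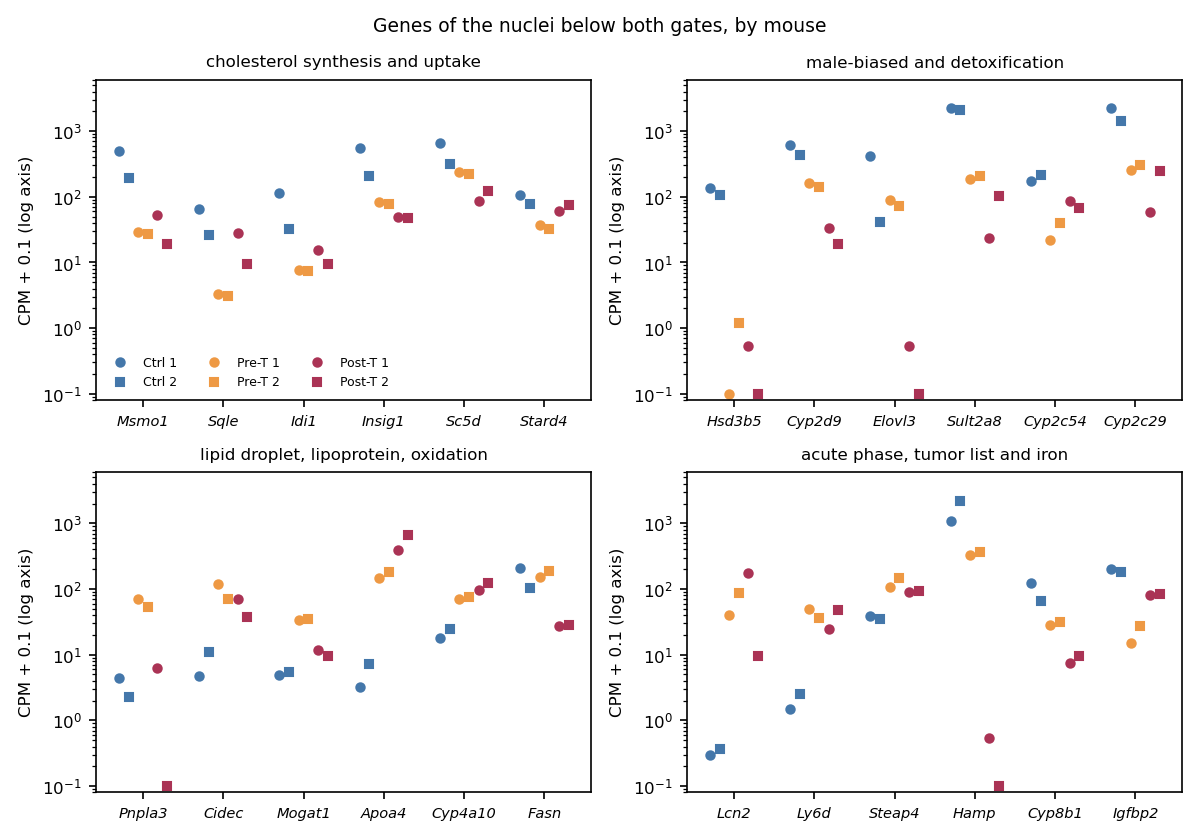
CPM plus 0.1 (log axis) in the nuclei below both gates of each mouse for 24 genes in 4 panels, cholesterol synthesis and uptake, male-biased genes and P450s, lipid genes, and acute-phase, tumor and midlobular genes. Msmo1 is at 489.8 and 193 CPM in the Ctrl and 29.3 and 27.1 CPM in the Pre-T mice, while Apoa4 is at 3.12 and 7.0 CPM in the Ctrl and 145 and 180 CPM in the Pre-T mice.

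Stress and clock genes gave few calls. Of 17 genes of the unfolded protein and integrated stress response 1 passed, Asns, asparagine synthetase, at 25.2 and 24.8 CPM in the Ctrl mice and 1.53 and 0.862 CPM in the Pre-T mice (log2 fold change -4.57, SE 0.47, edgeR adjusted p = 0.0147), and the list median was -0.12. Of 15 clock genes 1 passed in each direction, and the one that fell, Nr1d1, a repressor within the clock, was at 15.6 and 102 CPM in the Ctrl mice and 0.959 and 0.431 CPM in the Pre-T mice (log2 fold change -6.53, SE 1.03, edgeR adjusted p = 0.0335). The Ctrl mice themselves differed in clock genes. Npas2 was at 197 CPM in Ctrl 1 and 8.08 CPM in Ctrl 2, and Dbp at 1.17 and 55.5 CPM (both genes were chosen after their values were seen). The hour of tissue collection is not given in the sources used here. No cell cycle gene of 10 passed in edgeR (median 1.41, with 3 at an unadjusted p under 0.05 and 0 called by DESeq2). Without the 7 clusters 5 of the 15 clock genes passed, 2 higher and 3 lower, 1 of the 10 cell cycle genes, Cenpf, higher, and 1 of the 17 stress genes, Asns.

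The other genes with large changes came from several functions. Ptges, a prostaglandin E synthase, was at 0.781 and 0.269 CPM in the Ctrl mice and 132 and 76.7 CPM in the Pre-T mice (log2 fold change 7.22, SE 0.88, edgeR adjusted p = 0.0195). Ephb2, a receptor tyrosine kinase, was at 3.91 and 1.35 CPM in the Ctrl mice and 69.8 and 42.4 CPM in the Pre-T mice (log2 fold change 4.1, SE 0.51, edgeR adjusted p = 0.0202). Tmprss11f, a membrane serine protease, was at 1.56 and 3.5 CPM in the Ctrl mice and 82.5 and 44.6 CPM in the Pre-T mice (log2 fold change 4.44, SE 0.52, edgeR adjusted p = 0.0182). All 3 were near 0 in both Ctrl mice. Grin2b, a glutamate receptor subunit, was at 0.391 and 0 CPM in the Ctrl mice and 56.8 and 90.7 CPM in the Pre-T mice, 2 UMIs against 717 (ratio 321, counting interval 88.6 to 2658, edgeR adjusted p = 0.0173). Gpnmb, a transmembrane glycoprotein that also marks lipid-laden macrophages, was at 0.586 and 0 CPM in the Ctrl mice and 9.02 and 23 CPM in the Pre-T mice, 3 UMIs against 154 (ratio 46.0, counting interval 15.5 to 226, edgeR adjusted p = 0.0365). Grin2b and Gpnmb both had Pre-T 2 above Pre-T 1. In the macrophage-like cluster Gpnmb was at 137 CPM, against 6.91 CPM in all other nuclei below both gates. That cluster held 19 nuclei of Pre-T 1 and 73 of Pre-T 2.

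Of the large decreases, Susd4, a membrane regulator of complement, was at 212 and 166 CPM in the Ctrl mice and 1.73 and 7.11 CPM in the Pre-T mice (log2 fold change -5.67, SE 0.58, edgeR adjusted p = 0.0147). Egr1, an immediate early transcription factor, was at 127 and 318 CPM in the Ctrl mice and 14 and 19 CPM in the Pre-T mice (log2 fold change -4.0, SE 0.47, edgeR adjusted p = 0.019). Ppp1r3g, which directs a phosphatase to glycogen, was at 25.6 and 39.1 CPM in the Ctrl mice and 2.49 and 0.862 CPM in the Pre-T mice (log2 fold change -4.45, SE 0.64, edgeR adjusted p = 0.0265). In each the Pre-T mice were below both Ctrl mice. Egfem1 was at 91.4 and 79.7 CPM in the Ctrl mice and 1.15 and 3.23 CPM in the Pre-T mice (log2 fold change -5.53, SE 0.97, edgeR adjusted p = 0.045), but without the 7 clusters its log2 fold change was -2.20 and DESeq2 gave an adjusted p of 0.26 with all nuclei.

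**Figure D4:**
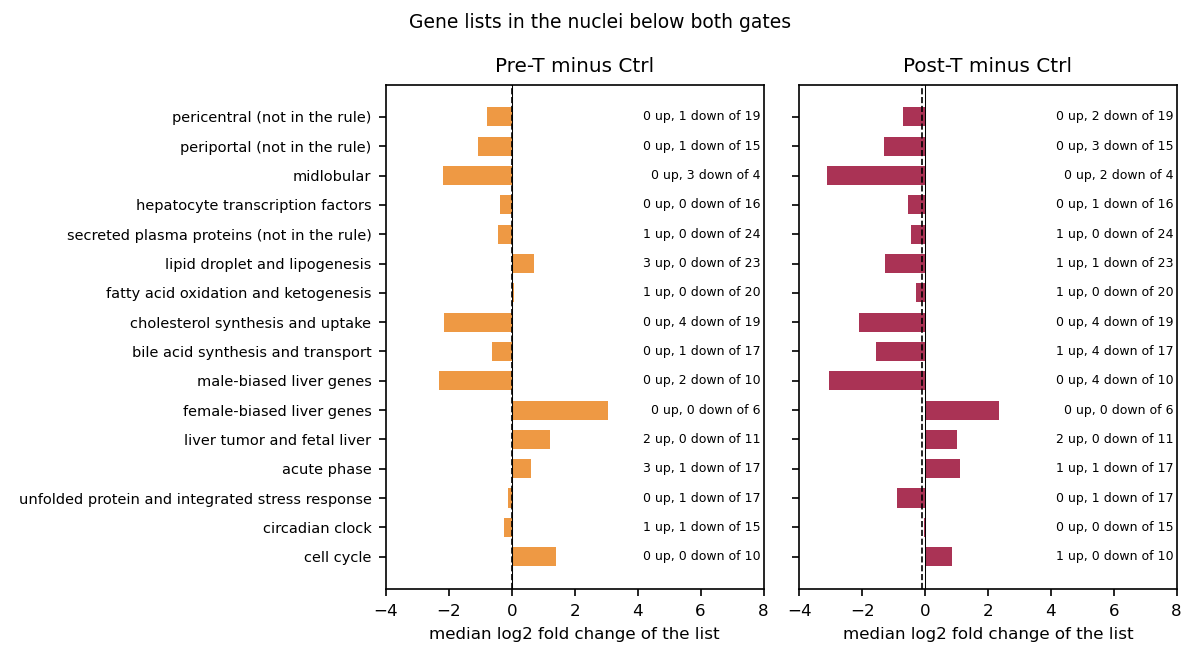
Median log2 fold change of each gene list in the nuclei below both gates for Pre-T minus Ctrl and Post-T minus Ctrl, with genes at 0 UMIs in a group set at their bound, the number of genes called higher and lower beside each bar, and the median of all genes as a dashed line. The cholesterol list has medians of -2.15 and -2.11, with 4 genes called lower in each comparison, against medians over all genes of 0.02 and -0.09.

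Between the Post-T and the Ctrl mice, 343 genes passed the test, 118 higher (0.69%) and 225 lower (1.32%), together 2.01% of the 17094 genes tested (edgeR's quasi-likelihood test, Benjamini-Hochberg adjusted p under 0.05). Cholesterol, male-biased, bile acid and periportal genes were among those that fell, and Apoa4, Lcn2 and Cidec among those that rose. This comparison shares its Ctrl mice with the one above. The CPM of these groups did not overlap in 47.2% of the genes (22% higher and 25.2% lower in Post-T). Most of the Post-T UMIs came from Post-T 1. Without Post-T 2, 657 genes passed (290 higher or 1.7%, 367 lower or 2.15%, together 3.85%), with 322 of the 343 among them, the lone Post-T mouse then being assumed to vary like the other groups. Dropping Post-T 1 gave 513 calls, with 114 of the 343 among them. Leaving out a Ctrl mouse gave 39 calls (Ctrl 1 dropped) or 114 (Ctrl 2 dropped), and leaving out a Pre-T mouse gave 93 (Pre-T 1 dropped) or 150 (Pre-T 2 dropped). Excluding the 7 clusters led by other cell types 1368 genes passed (676 higher or 4.27%, 692 lower or 4.37%, together 8.65% of 15820), with 324 of the 343 among them. Without the cluster led by hemoglobin genes as well, 737 passed (4.73%), with 220 of the 343 among them. DESeq2 called 740 genes (4.33%).

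Of the 19 cholesterol genes all were again lower, with 4 past the threshold and a median of -2.11 against -0.09 over all genes. Insig1 was at 551 and 207 CPM in the Ctrl mice and 48.8 and 47.4 CPM in the Post-T mice (log2 fold change -3.19, SE 0.52, edgeR adjusted p = 0.0305). Sc5d, a late sterol desaturase, was at 662 and 313 CPM in the Ctrl mice and 86.7 and 123 CPM in the Post-T mice (log2 fold change -2.56, SE 0.44, edgeR adjusted p = 0.0349). Both Post-T mice were below both Ctrl mice in these genes. Msmo1 was at 51.9 and 19 CPM in the Post-T mice (log2 fold change -3.15, SE 0.56, edgeR adjusted p = 0.0383). Without Post-T 2, Sc5d kept its call, while Insig1 (edgeR adjusted p = 0.0544) and Msmo1 (edgeR adjusted p = 0.0582) did not, and 3 of the 19 passed. With the 7 clusters left out, 11 of the 19 passed, all lower.

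Among the male-biased genes 4 of 10 fell, with a median of -3.35, or -3.06 with 1 gene at 0 UMIs set at its bound.
Cyp2d9 was at 614 and 439.6 CPM in the Ctrl mice and 33.1 and 19 CPM in the Post-T mice (log2 fold change -4.32, SE 0.41, edgeR adjusted p = 0.0152). Cyp4a12a, a male-biased fatty acid hydroxylase, was at 137 and 123 CPM in the Ctrl mice and 18.7 and 0 CPM in the Post-T mice (log2 fold change -3.19, SE 0.49, edgeR adjusted p = 0.0259). Elovl3, which lengthens fatty acids, was at 413 and 40.7 CPM in the Ctrl mice and 0.436 and 0 CPM in the Post-T mice, and its 1 UMI in the Post-T nuclei gave a Ctrl to Post-T ratio of 616 (counting interval 110.4 to 24330, edgeR adjusted p = 0.0457). The Ctrl mice were themselves far apart for Elovl3, and without Post-T 2 its call was lost (edgeR adjusted p = 0.0894).
Hsd3b5 had 1 UMI in the Post-T nuclei against 1094 in the Ctrl nuclei, a ratio of 297 (counting interval 53.2 to 11750, edgeR adjusted p = 0.0159). Sult2a8, a liver sulfotransferase, was at 2222 and 2088 CPM in the Ctrl mice, 187 and 204 CPM in the Pre-T mice and 23.5 and 104 CPM in the Post-T mice (Post-T minus Ctrl, log2 fold change -5.89, SE 0.67, edgeR adjusted p = 0.0159). Its levels in the Western diet mice of both groups were below both Ctrl mice. After removal of the 7 clusters 7 of the 10 male-biased genes passed, all lower.

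Of the midlobular genes Hamp showed the widest difference. It had 5615 and 8261 UMIs in the Ctrl nuclei below both gates and 1 and 0 UMIs in the Post-T nuclei, a ratio of 3770 (counting interval 677 to 148900, edgeR adjusted p = 0.00929). Above the pericentral gate Hamp was at 3.04 and 0.638 CPM in the Post-T mice. Cyp8b1 was at 122 and 65.2 CPM in the Ctrl mice and 7.41 and 9.48 CPM in the Post-T mice (log2 fold change -3.81, SE 0.48, edgeR adjusted p = 0.0205), while Igfbp2 was at 205 and 184 CPM in the Ctrl mice and 81.9 and 85.3 CPM in the Post-T mice and missed the threshold (log2 fold change -1.46, SE 0.35, edgeR adjusted p = 0.0809). The list median was -5.75, or -3.11 with 1 gene at 0 UMIs set at its bound, and without the 7 clusters all 4 midlobular genes passed, all lower.

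Bile acid genes gave 5 calls of 17, 4 of them lower, with a median of -1.55. Slc10a1, the transporter that takes bile acids up from blood, was at 180.3 and 469 CPM in the Ctrl mice and 51.4 and 19 CPM in the Post-T mice (log2 fold change -3.09, SE 0.57, edgeR adjusted p = 0.0424). Nr0b2, the repressor of bile acid synthesis, was at 131 and 270.4 CPM in the Ctrl mice and 13.5 and 28.4 CPM in the Post-T mice (log2 fold change -3.9, SE 0.54, edgeR adjusted p = 0.0237), and was the only one of 16 hepatocyte transcription factors to pass (median -0.54). Abcc3, an exporter on the blood side, was at 309 and 385 CPM in the Ctrl mice and 107 and 85.3 CPM in the Post-T mice (log2 fold change -2.03, SE 0.32, edgeR adjusted p = 0.0278). All 3 were below both Ctrl mice in both Post-T mice. Abcc4, an exporter of the same side, was at 13.9 and 12.1 CPM in the Ctrl mice and 98.9 and 313 CPM in the Post-T mice (log2 fold change 3.47, SE 0.64, edgeR adjusted p = 0.0415). Without Post-T 2 the calls of Slc10a1 (log2 fold change -2.82, edgeR adjusted p = 0.0653) and Abcc4 (log2 fold change 2.76, edgeR adjusted p = 0.0544) were lost, and without both Post-T 2 and the 7 clusters both passed, at -2.87 and 3.04. Without nuclei of the 7 clusters 10 of the 17 bile acid genes passed, Abcc4 higher and 9 lower, and Nr0b2 was again the 1 call among the transcription factors.

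The calls in the zonal lists depended on the nuclei included. Cyp2c29, a pericentral P450, was at 2263 and 1433 CPM in the Ctrl mice, 257 and 301 CPM in the Pre-T mice and 58.8 and 247 CPM in the Post-T mice (Post-T minus Ctrl, log2 fold change -4.17, SE 0.66, edgeR adjusted p = 0.0278), and Cyp2c50 was at 347 and 231 CPM in the Ctrl mice and 79.3 and 37.9 CPM in the Post-T mice (log2 fold change -2.31, SE 0.41, edgeR adjusted p = 0.0385), which made 2 of 19 pericentral genes lower (median -0.70). For Pre-T minus Ctrl neither passed with all 6 mice. G6pc, the last enzyme of glucose release, was at 1485 and 1632 CPM in the Ctrl mice and 160.4 and 189.6 CPM in the Post-T mice (log2 fold change -3.44, SE 0.40, edgeR adjusted p = 0.0159). Etnppl was at 18.3 and 0 CPM in the Post-T mice (log2 fold change -2.85, SE 0.54, edgeR adjusted p = 0.0457), and Ftcd, an enzyme of histidine breakdown, at 288 and 382 CPM in the Ctrl mice and 83.2 and 94.8 CPM in the Post-T mice (log2 fold change -2.19, SE 0.31, edgeR adjusted p = 0.0237). These were the 3 of 15 periportal genes that passed, all lower, with a list median of -1.30. Without the 7 clusters 10 of the 19 pericentral genes passed, 6 P450s and Rgn lower and 3 higher, the higher ones being Axin2 and Nkd1, targets of Wnt signaling, and Rhbg, an ammonium transporter. Post-T 2 then held 6 nuclei, with Axin2 and Nkd1 at 0 CPM, so both rises were seen in Post-T 1 alone. Axin2 was at 125 CPM in Post-T 1 and 16.8 and 26.3 CPM in Ctrl, and Nkd1 at 100 CPM and 0.71 and 1.24 CPM. Rhbg was at 21.2 and 104 CPM in the Post-T mice and 2.84 and 0.927 CPM in Ctrl. Of the 15 periportal genes 6 passed without the 7 clusters, 5 lower and Cyp17a1, a steroid hydroxylase, higher. Cyp17a1 was at 42 and 26 CPM in the Post-T mice and 2.6 and 3.09 CPM in Ctrl. In the 6 nuclei of Post-T 2, 26 CPM was the lowest value above 0 of any zonal gene, so the Rhbg and Cyp17a1 values there rest on few UMIs.

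The lipid list gave 1 call in each direction. Of 23 genes, Cidec was at 4.69 and 11 CPM in the Ctrl mice and 70.6 and 37.9 CPM in the Post-T mice (log2 fold change 2.79, SE 0.53, edgeR adjusted p = 0.0446) and Fasn, fatty acid synthase, at 206 and 104 CPM in the Ctrl mice and 27 and 28.4 CPM in the Post-T mice (log2 fold change -2.72, SE 0.44, edgeR adjusted p = 0.029), with a median of -1.27. Pnpla3 was at 6.1 and 0 CPM in the Post-T mice, near the Ctrl level (log2 fold change 0.57, SE 0.59, edgeR adjusted p = 0.649), and Mogat1 at 11.8 and 9.48 CPM (log2 fold change 0.97, SE 0.40, edgeR adjusted p = 0.248). With the 7 clusters left out, 11 of the 23 passed, 10 of them lower. Cyp4a10 was at 18 and 24.8 CPM in the Ctrl mice and 97.2 and 123 CPM in the Post-T mice (log2 fold change 2.06, SE 0.29, edgeR adjusted p = 0.0245), the 1 call of 20 oxidation genes (median -0.29).

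Apoa4 was at 387 and 654 CPM in the Post-T mice (log2 fold change 6.38, SE 0.48, edgeR adjusted p = 0.00929), again the only call of 24 secreted proteins (median -0.44), also without the 7 clusters. Lcn2 was at 174 CPM in Post-T 1 and 9.48 CPM, which is 1 UMI, in Post-T 2, and 400 UMIs against 2 in Ctrl gave a ratio of 736 (counting interval 202 to 6099, edgeR adjusted p = 0.0237). Ly6d was at 1.37 and 2.42 CPM in the Ctrl mice and 24.4 and 47.4 CPM in the Post-T mice (log2 fold change 3.72, SE 0.48, edgeR adjusted p = 0.0209). The tumor list, with 2 of 11 called, had a median of 1.01, and the acute-phase list, with Lcn2 higher and Hamp lower of 17, a median of 1.12. After removal of the 7 clusters 8 of the 17 acute-phase genes passed, Hamp lower and 7 higher, among them the serum amyloid genes Saa1 and Saa2 and the orosomucoid genes Orm2 and Orm3, and 5 of 10 tested genes of the tumor list, all higher (Gpc3, Sox4, Cd44, Lcn2 and Ly6d). Asns was the 1 call of 17 stress genes, at 1.31 and 0 CPM in the Post-T mice (log2 fold change -4.48, SE 0.65, edgeR adjusted p = 0.0245, list median -0.88). Cenpf, a kinetochore protein, was the 1 cell cycle gene of 10 to pass, at 0.781 and 0.269 CPM in the Ctrl mice and 12.2 and 37.9 CPM in the Post-T mice (log2 fold change 4.67, SE 0.83, edgeR adjusted p = 0.0383, list median 0.85). No clock gene of 15 (median -0.04) and no female-biased gene of 6 (median 2.19, or 2.36 with 2 genes at their bound) passed in edgeR, with 3 and 2 genes at an unadjusted p under 0.05 and 2 and 1 called by DESeq2. Without nuclei of the 7 clusters 1 clock gene (Nfil3, lower), 1 female-biased gene (Cux2, higher), 2 cell cycle genes (Mki67 and Cenpf, higher) and 1 stress gene (Asns, lower) passed.

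Of the other large changes, Car3, carbonic anhydrase 3, an abundant liver protein (ENSMUSG00000027559, chr3:14863512-14872523, plus strand), was at 2058 and 2617 CPM in the Ctrl mice, 622 and 817 CPM in the Pre-T mice and 21.4 and 75.9 CPM in the Post-T mice (Post-T minus Ctrl, log2 fold change -6.37, SE 0.65, edgeR adjusted p = 0.0152). Ces2a, a carboxylesterase, was at 216 and 67.1 CPM in the Ctrl mice and 2.18 and 19 CPM in the Post-T mice (log2 fold change -5.61, SE 0.95, edgeR adjusted p = 0.0343). Tafa2, which encodes a small secreted protein, had 633 UMIs in the Ctrl and 0 in the Post-T nuclei, at least 57.3-fold lower against a floor of 3 counts over the group (edgeR adjusted p = 0.0152). Both Post-T mice were below both Ctrl mice for all 3. Mup11 was at 2.18 and 0 CPM in the Post-T mice (log2 fold change -6.64, SE 0.99, edgeR adjusted p = 0.0259).

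Ephb2 was higher in the Post-T mice, at 88.5 and 66.4 CPM (log2 fold change 4.66, SE 0.53, edgeR adjusted p = 0.0159). Grin2b had 158 UMIs against 2, a ratio of 291 (counting interval 79.2 to 2422, edgeR adjusted p = 0.018), and Gpnmb 76 against 3, a ratio of 93.2 (30.7 to 462, edgeR adjusted p = 0.0237). Of the 158 Grin2b UMIs, 157 were in Post-T 1. The macrophage-like cluster, where Gpnmb was at 137 CPM, held 15 nuclei of Post-T 1 and 8 of Post-T 2. Lef1, a transcription factor of the Wnt pathway, was at 1.17 and 0.539 CPM in the Ctrl mice, 11.7 and 1.08 CPM in the Pre-T mice and 158 and 28.4 CPM in the Post-T mice (Post-T minus Ctrl, log2 fold change 6.74, SE 1.18, edgeR adjusted p = 0.0373). St18 was at 0.976 and 0.269 CPM in the Ctrl mice and 20.9 and 218 CPM in the Post-T mice (log2 fold change 6.62, SE 1.25, edgeR adjusted p = 0.0446), but without the 7 clusters its log2 fold change was 0.94 (edgeR adjusted p = 0.696).

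The Lef1 reads were concentrated in few nuclei. A cluster of 46 nuclei, 24 from Pre-T 1, 20 from Post-T 1 and 2 from Ctrl 1, was led by Nupr1, Abcc4, Lef1 and Nkd1. It held 20 of the 351 nuclei of Post-T 1 but 58.6% of their Lef1 UMIs, 82.9% of those of Nkd1, a feedback inhibitor of Wnt signaling, and 61.2% of those of Abcc4. The other 331 nuclei of Post-T 1 held 150 of its 362 Lef1 UMIs, at 70.3 CPM, above the 1.17 and 0.539 CPM of the Ctrl mice, and no nucleus of Post-T 2 was in the cluster. In Pre-T 1 the shares were 80.3%, 50.9% and 76.1%, and Lef1 was at 2.39 CPM in the other nuclei. Alb was at 878 and 1358 CPM in these nuclei of Pre-T 1 and Post-T 1, against 2949 and 6792 CPM in the remaining ones. The same cluster held 0.501% of the Lcn2 UMIs and 0% of the Grin2b UMIs of Post-T 1. These genes defined the cluster and the shares are a description.

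No gene passed the test between the Post-T and the Pre-T mice with edgeR, while 2601 of 17094 had an unadjusted p under 0.05 and DESeq2 called 357 genes (2.09%, 173 higher and 184 lower in Post-T). The edgeR count was 20 (0.117%) without Post-T 2, 369 (2.33%) without the 7 clusters and 193 (1.24%) without the cluster led by hemoglobin genes as well. Leaving out Post-T 1 gave 211 calls, leaving out either Ctrl mouse gave 2, and leaving out either Pre-T mouse gave 0. The lists for lipid droplets and lipogenesis and for bile acids had medians of -1.37 and -1.05, against -0.10 over all genes. The medians of the 4 midlobular genes and of the 6 female-biased genes were -4.16 and -2.42, or -1.62 and -1.50 with genes at 0 UMIs set at their bound. A missing call does not show that the groups were alike.

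The last comparison asked whether the Western diet changed genes by different amounts below both gates and above the periportal gate in the same mice. With all 6 mice 229 of 18469 genes passed (1.24%, edgeR's quasi-likelihood test of the class by diet interaction with the mouse as a block), 153 (0.828%) with a higher and 76 (0.412%) with a lower log2 change below both gates. The Post-T mice gave only 16 and 1 nuclei above the periportal gate, and the median difference over all genes was 0.47. With the Ctrl and Pre-T mice alone, an alternative added after seeing the data, 280 of 18306 genes passed (1.53%), 131 higher (0.716%) and 149 lower (0.814%), with a median over all genes of 0.075, and 107 of the 229 were among them. Excluding the 7 clusters led by other cell types, which were identified in the nuclei below both gates alone, 338 of 17866 genes passed with all 6 mice (1.89%), with 163 of the 229 among them, and 753 of 17704 with the Ctrl and Pre-T mice (4.25%), 402 higher (2.27%) and 351 lower (1.98%). Of the 6 mice with all nuclei, dropping Ctrl 1 left 150 calls, Ctrl 2 left 123, Pre-T 1 left 76, Pre-T 2 left 96, Post-T 1 left 79 and Post-T 2 left 165. The genes named next were taken from the fit of the Ctrl and Pre-T mice with all nuclei after their values were seen, by the same order as the rule.

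Limch1, a regulator of actin and myosin, was at 23.8 and 15.6 CPM in the Ctrl mice and 30.1 and 40.5 CPM in the Pre-T mice below both gates, and at 7.35 and 4.31 CPM in the Ctrl mice and 117 and 113 CPM in the Pre-T mice above the periportal gate (log2 difference -3.42, SE 0.23, edgeR adjusted p = 8.92e-11). Without the clusters led by other cell types Limch1 was at 1.89 and 0.618 CPM in the Ctrl mice and 28.3 and 41.8 CPM in the Pre-T mice below both gates, and the log2 difference was 0.37 (edgeR adjusted p = 0.857). No such nuclei were removed above the periportal gate, and the source of the difference was not tested. Cyp7a1, the rate-limiting enzyme of bile acid synthesis, was at 114 and 187 CPM in the Ctrl mice and 191 and 162 CPM in the Pre-T mice below both gates and at 24.7 and 31.2 CPM in the Ctrl mice and 154 and 126 CPM in the Pre-T mice above the periportal gate (log2 difference -2.03, SE 0.16, edgeR adjusted p = 1.12e-09). Without the clusters the difference was -2.22 (SE 0.16, edgeR adjusted p = 4.72e-41). The SE was alike in both fits, so the smaller p did not come from a smaller spread. With 2 mice a group, p-values this small do not measure the spread between mice. The Cyp7a1 level below both gates overlapped between the diets, and the periportal level approached it in the Pre-T mice. With all 6 mice the differences of Limch1 and Cyp7a1 were -2.75 and -1.80, and without Post-T 1 they turned to 2.72 and 3.08, where the Post-T periportal sum was 1 nucleus. Osbpl3, an oxysterol-binding protein, was higher in the Pre-T mice in both classes, at 17.2 and 54.9 CPM in the Ctrl mice and 298 and 287 CPM in the Pre-T mice below both gates and at 5.54 and 10.5 CPM in the Ctrl mice and 275 and 218 CPM in the Pre-T mice above the periportal gate (log2 difference -1.82, SE 0.20, edgeR adjusted p = 7.85e-07), and it missed the threshold with all 6 mice (-1.23, edgeR adjusted p = 0.175).

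With the Ctrl and Pre-T mice, Hamp was at 1097 and 2225 CPM in the Ctrl mice and 329.9 and 364 CPM in the Pre-T mice below both gates and at 952 and 2176 CPM in the Ctrl mice and 1247 and 1064 CPM in the Pre-T mice above the periportal gate (log2 difference -1.82, SE 0.13, edgeR adjusted p = 2.48e-10), where the Pre-T mice lay within the Ctrl range. With all 6 mice its difference was 0.84 (SE 5.56, edgeR adjusted p = 1). Of the 19 pericentral genes 6 passed with these 4 mice, all with a lower difference (Oat, Cyp2a5, Cyp2c29, Cyp2c37, Cyp7a1 and Rgn, list median -0.49), and 1, Cyp7a1, with all 6 mice (list median -0.45). Cyp2c29 was at 2263 and 1433 CPM in the Ctrl mice and 257 and 301 CPM in the Pre-T mice below both gates and 416 and 233 CPM in the Ctrl mice and 73.5 and 85.4 CPM in the Pre-T mice above the periportal gate (log2 difference -0.68, SE 0.14, edgeR adjusted p = 0.00744), and missed the threshold with all 6 mice (edgeR adjusted p = 0.17). Of the 15 periportal genes Hsd17b13 and Cdh1 had a higher and Cps1 and Pck1 a lower difference (median 0.017), and with all 6 mice Ftcd passed too, lower. Without the 7 clusters 12 of the 19 pericentral genes passed with the Ctrl and Pre-T mice, 11 lower and Nkd1 higher, and 6 of the 15 periportal genes, 4 lower and 2 higher, while with all 6 mice 6 and 6 did. The classes were themselves cut by fixed gates on zonal genes. Above the periportal gate Hal was at 1686 and 1678 CPM in the Ctrl and 510 and 458 CPM in the Pre-T mice. Cyp2f2 and Gls2 were lower in the Pre-T mice too, while Sds overlapped. Whether the gates took in the same zones on both diets was not tested.

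Other genes had a higher difference below both gates. Adgrv1, an adhesion receptor, was at 14.3 and 49 CPM in the Ctrl mice and 412 and 270.1 CPM in the Pre-T mice below both gates and at 10.6 and 39 CPM in the Ctrl mice and 65.6 and 46.8 CPM in the Pre-T mice above the periportal gate (log2 difference 2.25, SE 0.18, edgeR adjusted p = 1.12e-09). Hk2, a hexokinase that adult hepatocytes hardly express, was at 4.49 and 1.62 CPM in the Ctrl mice and 59.7 and 36 CPM in the Pre-T mice and at 2.52 and 0.946 CPM in the Ctrl mice and 4.41 and 8.87 CPM in the Pre-T mice (log2 difference 2.0, SE 0.51, edgeR adjusted p = 0.0374). Adgrv1 also passed with all 6 mice (1.81, edgeR adjusted p = 2.04e-11), while Hk2 did not (edgeR adjusted p = 0.123). In both genes the Pre-T nuclei below both gates were above all the other 6 values.

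**Figure D5:**
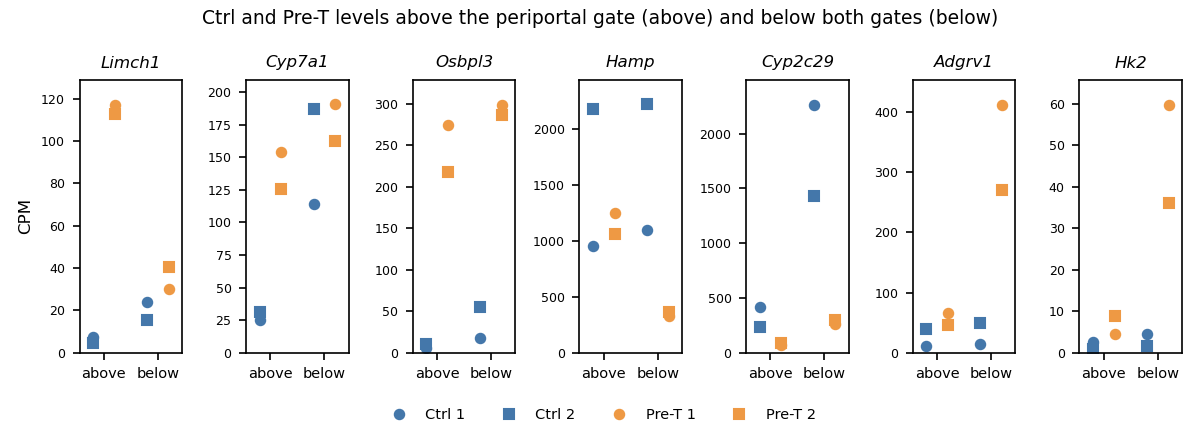
CPM (linear axes that start at 0) of 7 genes in nuclei above the periportal gate and nuclei below both gates of the 2 Ctrl and 2 Pre-T mice, 1 point per mouse and class. Adgrv1 is at 412 and 270 CPM below both gates in the Pre-T mice against 65.6 and 46.8 CPM above the periportal gate, while Limch1 is at 30.1 and 40.5 CPM against 117 and 113 CPM.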

How the data were processed

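The files held UMI counts per gene and barcode for 6 single-nucleus libraries, 1 per mouse. Per the labels, the authors aligned reads to mm10 with Cell Ranger 6.1.1 and deposited raw counts for 32285 genes. Whether intronic reads were counted is not given in the sources used here. The study's own limits on genes and mitochondrial share (under 5000 genes, under 5%) were kept. The replicates were separate mice, grouped by the labels, and the members and gene lists were chosen with earlier results of these data known.

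From the counts, UMIs of the nuclei below both gates were summed per mouse and tested in 1 fit over all 6 mice (edgeR 4.0.16 in R 4.3.3, quasi-likelihood, TMM, genes with at least 10 counts, 3 residual degrees of freedom, Benjamini-Hochberg adjustment, threshold 0.05). In simulated counts with known changes, 17.7% to 18.5% of the calls of this fit were unchanged genes, more than the nominal 0.05. The calls are therefore less sure than their adjusted p-values state, above all those near the threshold. The class by diet interaction added nuclei above the periportal gate with the mouse as a block. Its fits share the estimate of spread across genes, and with 2 mice a group their very small p-values do not measure the spread between mice. DESeq2 1.42.0 was an alternative. Gene lists are described by counts and medians. Nuclei were clustered with scanpy 1.11.5 and Leiden (leidenalg 0.10.2, resolution 0.8, 2000 variable genes, 30 components), and a cluster counted as led by another cell type with at least 8 of 10 markers raised at least 2-fold and 1 among its top 10 genes, a limit set after seeing the clusters. No doublet caller was run.

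Named genes were up to 8 per direction with the largest fold change among those past the threshold, with a mean of at least 20 CPM and no overlap between groups (5 for the interaction), and up to 4 called genes per list with a mean of at least 10 CPM, or 2 by mean where none passed. Members of the rule, predicted genes and mitochondrial genes were left out. Some genes that met the rule are not reported here. Genes that fall outside this rule are said to have been chosen after their values were seen, or are list members or classes named for context. Coordinates are from the GENCODE annotation of the mm10 assembly. Libraries, depth and gate settings were varied as given in the closing section.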

Additional observations from a re-analysis of the deposited data

Results flagged for a closer look

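These 10 genes were picked out because their change with the Western diet differed between nuclei below both gates and nuclei above the periportal gate with all 6 mice (edgeR's interaction test). The Post-T mice gave 16 and 1 nuclei above the periportal gate, and the part of depth in values of 0 CPM there was not tested.

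In 5 genes the difference was positive. Lef1 was at 1.17 and 0.539 CPM in the Ctrl mice, 11.7 and 1.08 CPM in the Pre-T mice and 158 and 28.4 CPM in the Post-T mice below both gates (log2 difference 7.52, SE 1.41, edgeR adjusted p = 4.79e-05). Grm7 (6.44), Plcl1 (6.4), Ptprm (6.28) and Lhfp (6.11) were all highest in Post-T 2, at 531, 1479, 1072 and 730.1 CPM below both gates, where most nuclei lay in clusters led by other cell types. With the Ctrl and Pre-T mice alone, Lhfp passed (log2 difference 1.32, edgeR adjusted p = 0.00949) and Grm7, Plcl1, Ptprm and Lef1 did not (edgeR adjusted p = 0.756, 0.15, 0.352 and 0.288). Without the clusters led by other cell types as well, Lhfp (2.81) and Plcl1 (1.73) passed.

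In the other 5 genes the difference was negative. It was -2.75 for Limch1, -2.31 for Slc22a27, an organic anion transporter, -2.23 for Slc13a3, a dicarboxylate transporter, -2.11 for Fmo2, a flavin monooxygenase, and -1.80 for Cyp7a1. With the Ctrl and Pre-T mice alone Limch1, Cyp7a1, Slc22a27 (log2 difference -2.10, edgeR adjusted p = 0.00562) and Fmo2 (-1.27, edgeR adjusted p = 0.0272) passed, and Slc13a3 (-1.0, edgeR adjusted p = 0.632) did not. Without the clusters led by other cell types as well, Limch1 (0.37, edgeR adjusted p = 0.857) and Fmo2 (-0.28, edgeR adjusted p = 0.843) did not pass, while Cyp7a1 (-2.22) and Slc22a27 (-2.15) did. Slc13a3 was at 9.76 and 1.89 CPM in the Ctrl mice, 20.1 and 18.5 CPM in the Pre-T mice and 51.9 and 47.4 CPM in the Post-T mice below both gates. The part of low numbers of nuclei in these differences was not tested.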

How the results depend on the processing

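The 3 limits are 2 mice a group, 24 nuclei in Post-T 2, and the 621 nuclei in clusters led by other cell types. For the share of hepatocyte nuclei below both zonal gates, Western diet minus Ctrl was 4.87 percentage points and turned to -4.725 without Pre-T 2, with a range of -4.725 to 14.59 when 1 mouse was left out. The cause of the changes below was not tested.

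For Pre-T minus Ctrl (194 genes called), DESeq2 called 328, no filter on low counts 1489, nuclei of at least 5000 UMIs 566, nuclei with 0 UMIs of other-cell markers 627, both gates halved 614 and thinning to 2500 UMIs 349. Of the alternatives added after seeing the data, the fit without clusters led by other cell types called 1099, all 6 hepatocyte genes detected 828, Ctrl and Pre-T mice only 496, both of these exclusions 883, no Post-T 2 with no such clusters 949, and no such clusters nor the one led by hemoglobin genes 707. Leaving out 1 mouse gave 0 to 598. For Post-T minus Ctrl (343) the same settings gave 740 with DESeq2, 2032 with no filter, 845, 967 and 521 for the next 3, 1368 without the clusters, 795 with all 6 hepatocyte genes, 1218 without both Post-T 2 and the clusters and 737 without the hemoglobin-led cluster too, and 39 to 657 when 1 mouse was left out. For Post-T minus Pre-T (0) they gave 357, 1432, 112, 239, 77 and 3 with thinning, 369, 148, 140 and 193 for the last 4, 2 with RLE size factors, and 0 to 211 when 1 mouse was left out. The class by diet interaction (229) gave 70 with DESeq2, 124 with edgeR's filterByExpr, 49 with thinning, 753 with the Ctrl and Pre-T mice and no clusters led by other cell types, and 76 to 165 when 1 mouse was left out. Without Post-T 1, where 1 nucleus was left above the periportal gate, the interaction of Cyp7a1 (3.08), Limch1 (2.72), Slc13a3 (3.25) and Slc22a27 (1.73) reversed. These were the highest values with 1 mouse left out, and the lowest were -2.12, -3.06, -2.6 and -5.5. Limch1 also turned, to 0.212 without the clusters led by other cell types and to 0.368 with the Ctrl and Pre-T mice as well, and St18 for Post-T minus Ctrl to -3.43 without these clusters and the hemoglobin-led one.

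Mice of the same number came from different animals, and their deviations from the group means correlated at r = -0.345, -0.060 and 0.274 (Ctrl with Pre-T, Ctrl with Post-T, Pre-T with Post-T), so the number was not used as a pairing. With the replicate number as a block, 243, 372 and 64 genes were called in the 3 comparisons.

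Of 156 results on named genes, 77 passed as reported. For these, the planned settings other than leaving out a mouse kept the call in 745 cases and lost it in 47, leaving out 1 mouse kept it in 253, lost it in 205 and reversed the sign in 4, and the added settings kept it in 331, lost it in 30 and reversed the sign in 3. The 79 that had not passed gained a call in 71, 15 and 23 cases.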

Other observations

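Other values of the nuclei below both gates belong to no comparison above. Of hepatocyte nuclei over the limit of 5000 genes, 357 of 937 would have been below both gates. A cluster of 20 nuclei was led by the cell cycle genes Top2a and Mki67, with 9 and 8 nuclei in the Pre-T mice, 2 in Ctrl 1 and 1 in Post-T 1. A cluster of 29 nuclei, all from Ctrl 1, was led by Serpina1e, Mup11 and Mup7, with Alb at 46216 CPM, and a cluster of 19 nuclei, all from Pre-T 2, was led by Mup20, Scd1 and Apoe, with Alb at 30462 CPM.

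Clock genes of the Ctrl mice stood at opposite levels. Arntl, an activator of the clock, was at 247 CPM in Ctrl 1 and 41.2 CPM in Ctrl 2, Npas2 at 197 and 8.08 CPM, Nr1d2 at 30.9 and 101 CPM and Nr1d1 at 15.6 and 102 CPM. The Pre-T mice were at 181 and 172 CPM for Arntl and 260.0 and 284 CPM for Npas2, and the Post-T mice at 69.3 and 47.4 CPM and at 39.2 and 9.48 CPM.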
